A study of Mus musculus with 12 samples.

Results

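The xenobiotic response of the gut was followed here through 8 genes: the sensors Nr1i2 (pregnane X receptor, PXR) and Nr1i3 (constitutive androstane receptor, CAR), and the effectors Cyp3a11, Cyp3a13, Cyp3a25, Cyp2b10, Abcb1a and Ugt1a1. They were chosen by name as the receptors and a set of their best-known target genes in rodents, out of 47643 genes in the count table. The choice was made with earlier results of these data known. All 8 passed the filter on low counts that left 17602 genes for testing. Expression was measured by bulk RNA-seq of mouse intestine in 12 libraries, 3 in each of 4 groups. The groups were PparaΔIE mice on a high-fat diet (KO HFD), Pparafl/fl mice on the same diet (WT HFD), PparaΔIE mice on chow (KO chow) and Pparafl/fl mice on chow (WT chow). All were male C57BL/6 mice, 7 to 8 weeks old, kept on their diet for 10 days, and the high-fat diet is labelled 60%. Pparafl/fl denotes floxed alleles of Ppara, and PparaΔIE is the usual notation for loss of the lipid-sensing receptor PPARA in the intestinal epithelium. The labels name neither the Cre line nor the deleted exons nor the segment of intestine. Nor do they state whether each library came from its own mouse, and p-values thus reflect only the scatter of these samples, which could be technical.

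PXR and CAR are nuclear receptors that are activated by drugs, steroids, bile acids and other foreign or toxic compounds. Each pairs with the retinoid X receptor on DNA and raises genes of detoxification, PXR classically the CYP3A family and CAR the CYP2B family, with many shared targets. The products act in sequence: cytochrome P450 enzymes oxidise a compound, UDP-glucuronosyltransferases attach a sugar to it, and ATP-driven exporters pump it out of the cell. In the small intestine this system meets ingested compounds before they reach the liver.

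Several facts about the libraries bear on these genes. Total expected counts, which are read estimates that need not be whole, ran from 33621040 to 53959405 per library. Ppara lay at 11.1 to 17.3 CPM (counts per 1000000, with library sizes scaled by TMM factors) in KO HFD against 33.7 to 39.3 CPM in WT HFD, and at 8.42 to 15.6 CPM in KO chow against 18.1 to 22.0 CPM in WT chow. The ileal bile acid binder Fabp6 lay at 3069 to 4502 CPM in all 12 libraries. The ileal markers summed to 5086 to 6971 CPM in KO HFD and 5683 to 6586 CPM in WT HFD. On chow they summed to 5131 to 5938 CPM in KO and 5828 to 6273 CPM in WT. Fgf15, also on the ileal list, was uneven, at 79.5 to 159 CPM in KO HFD and 84.5 to 116 CPM in WT HFD. On chow Fgf15 lay at 15.1 to 109 CPM in KO and 12.1 to 16.7 CPM in WT. The hepatocyte markers summed to 0.644 to 2.28 CPM, with Alb at 0 to 3 counts. The proximal intestine markers summed to 219.7 to 389 CPM in KO HFD, 306 to 713 CPM in WT HFD, 102 to 218 CPM in KO chow and 91.6 to 93.1 CPM in WT chow, and their part in the results was not tested. Library KO chow 3 lay between KO chow 1 and KO chow 2 for 98.3% of the 234 genes that differed over 2-fold between those libraries, and WT chow 1 lay between its partners for 82.1% of 28 such genes. The edgeR biological coefficient of variation, a measure of scatter within a group, was 0.14 in KO HFD, 0.146 in WT HFD, 0.152 in KO chow and 0.0583 in WT chow. In bulk tissue, fewer cells of a type and less RNA per cell cannot be told apart.

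PXR and CAR recognise pairs of short half-sites, most often AGGTCA or AGTTCA. Promoter windows of 300 bases, from 250 before to 50 after the RefSeq start (GRCm38.p6), were searched for both on either strand. The letters AGGTCA were present in 16% of 27025 mouse promoters and AGTTCA in 14%, and 27.6% held either. Of the 8 promoters of these genes, 4 held at least 1. Those are printed 5′ to 3′ on the gene's strand with each half-site in capitals. A match on the opposite strand reads TGACCT or TGAACT.
Cyp3a11, chr5:145879805-145880104, minus strand: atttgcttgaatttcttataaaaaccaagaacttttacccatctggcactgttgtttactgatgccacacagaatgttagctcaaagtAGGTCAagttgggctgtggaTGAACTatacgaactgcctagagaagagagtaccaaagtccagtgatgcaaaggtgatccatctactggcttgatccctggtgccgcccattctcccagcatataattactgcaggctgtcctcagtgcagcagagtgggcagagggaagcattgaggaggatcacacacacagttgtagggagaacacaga
Cyp3a25, chr5:146009569-146009868, minus strand: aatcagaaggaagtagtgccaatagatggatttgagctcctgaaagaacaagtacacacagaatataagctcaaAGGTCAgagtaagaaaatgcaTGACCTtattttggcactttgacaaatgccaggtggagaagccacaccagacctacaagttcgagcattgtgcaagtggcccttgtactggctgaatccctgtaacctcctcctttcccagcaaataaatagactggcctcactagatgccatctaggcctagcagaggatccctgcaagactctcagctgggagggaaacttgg
Abcb1a, chr5:8566841-8567140, plus strand: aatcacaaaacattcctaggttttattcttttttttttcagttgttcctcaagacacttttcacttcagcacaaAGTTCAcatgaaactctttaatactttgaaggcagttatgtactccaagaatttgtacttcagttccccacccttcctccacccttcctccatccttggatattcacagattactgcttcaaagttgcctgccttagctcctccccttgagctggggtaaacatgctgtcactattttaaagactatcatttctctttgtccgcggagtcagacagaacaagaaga
Ugt1a1, chr1:88211709-88212008, plus strand: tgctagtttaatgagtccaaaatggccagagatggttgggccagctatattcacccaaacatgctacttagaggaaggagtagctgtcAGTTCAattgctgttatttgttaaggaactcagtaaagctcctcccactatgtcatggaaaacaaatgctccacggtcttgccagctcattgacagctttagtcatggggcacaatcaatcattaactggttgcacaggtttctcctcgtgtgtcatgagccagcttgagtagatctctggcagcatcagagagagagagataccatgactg
In Cyp3a11 the half-sites begin at position -162 on the gene's strand and at -142 on the opposite strand, and in Cyp3a25 they begin at -176 and -155. Abcb1a holds a single AGTTCA at -176 and Ugt1a1 holds one at -162. The RefSeq window of Abcb1a ends at 8567140, far upstream of the gene start at 8660077 in GENCODE vM21, the annotation used here. Its printed sequence is thus not next to that gene start. Pairs of these half-sites as direct repeats with spacers of 1, 3 or 4 bases, or as everted repeats with a spacer of 6, were found in 0 of the 8 windows, and in 0.0851%, 0.0111%, 0.0259% and 0.0111% of all promoters in that order of spacing. Nr1i2, Nr1i3, Cyp3a13 and Cyp2b10 held neither half-site. Absence from so short a window says only that these letters are not there.

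The sensors themselves were nearly level. Nr1i2, which encodes PXR (chr16:38248323-38294824, minus strand, mm10), stood at 86.7, 87.2 and 93.9 CPM in KO HFD, 75.8, 95.1 and 90.3 CPM in WT HFD, 86.5, 85.2 and 87.7 CPM in KO chow and 84.6, 80.4 and 82.8 CPM in WT chow. The highest library was 1.25 times the lowest, the narrowest range of the 8 genes. Within the 4 comparisons of genotype or diet the groups overlapped, except that all 3 KO chow libraries lay above all 3 WT chow libraries. The log2 fold change of Nr1i2 was 0.04 (SE 0.08, adjusted p = 0.89, edgeR) for KO against WT on HFD, and it was 0.07 (SE 0.08, adjusted p = 0.76) on chow. HFD over chow gave 0.05 (SE 0.08, adjusted p = 0.77) in KO and 0.08 (SE 0.08, adjusted p = 0.57) in WT.

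Nr1i3, which encodes CAR (chr1:171213970-171220701, plus strand), was scarce. It stood at 2.83, 5.37 and 3.49 CPM in KO HFD, 4.42, 4.91 and 2.56 CPM in WT HFD, 4.29, 6.03 and 3.99 CPM in KO chow and 2.99, 3.48 and 2.99 CPM in WT chow. KO chow lay wholly above WT chow, with a log2 difference of 0.60 (SE 0.26, adjusted p = 0.35, edgeR), and the difference did not pass the test. On HFD the genotypes overlapped, with a log2 difference of -0.03 (SE 0.26, adjusted p = 0.98). Tomm40l lies on the opposite strand and overlaps Nr1i3, and the strand setting of the counting is not given in the sources used here, so the 2 genes may hold each other's reads. Per kilobase of exon the mean over all 12 libraries was 33.8 ± 2.1 CPM for Nr1i2 and 0.894 ± 0.247 CPM for Nr1i3 (SD, n = 12).

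**Figure D1:**
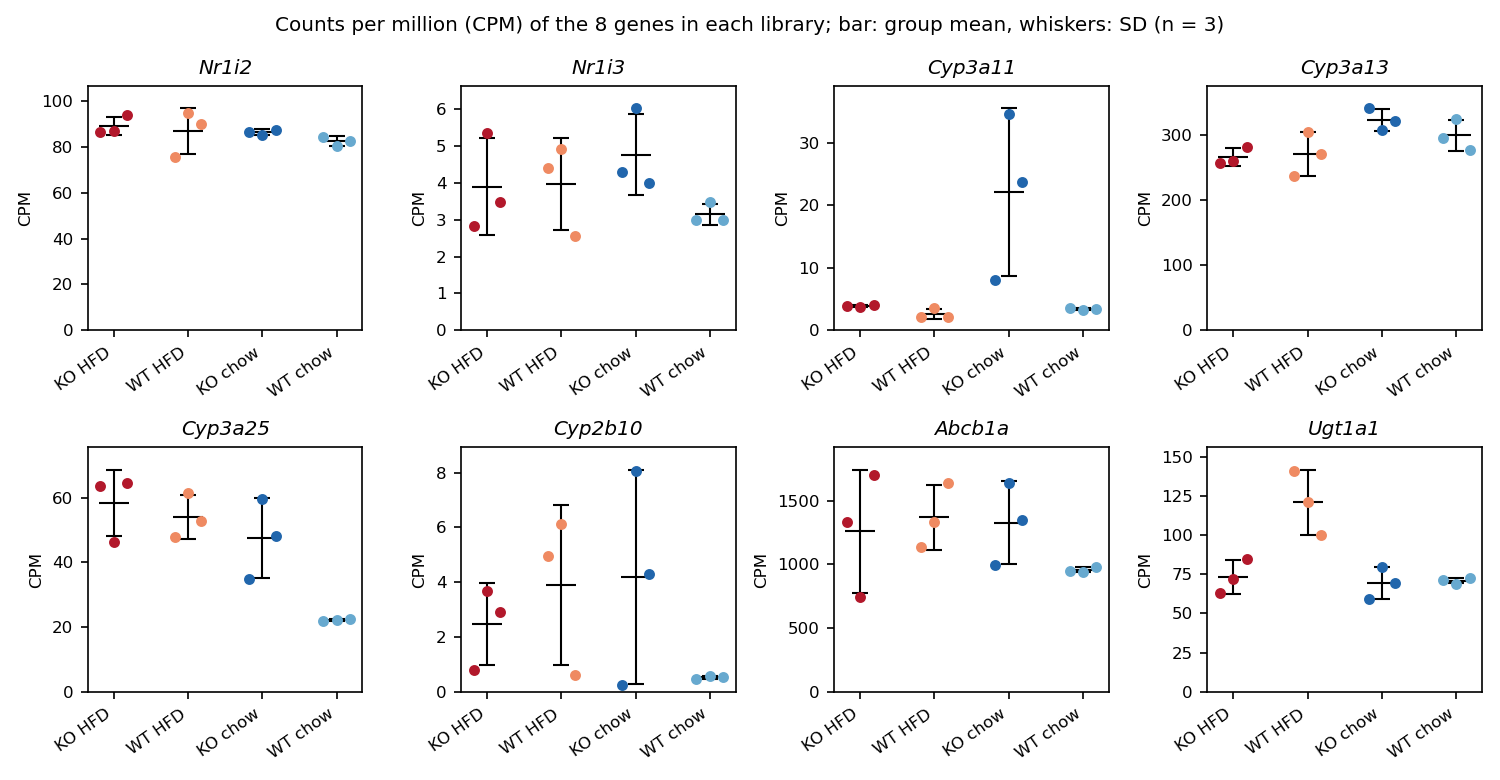
CPM of each of the 8 genes in each library, with 1 panel per gene, a linear axis from 0, points for the 3 libraries of each group and bars for the mean ± SD. Cyp3a11 reached 7.97 to 34.5 CPM in KO chow and 2.18 to 4.07 CPM elsewhere, while Nr1i2 stayed between 75.8 and 95.1 CPM.

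The P450 genes differed in pattern from one another. Cyp3a11 (chr5:145854426-145879964, minus strand), the mouse enzyme most used as a readout of PXR, stood at 3.83, 3.77 and 4.07 CPM in KO HFD, 2.19, 3.57 and 2.18 CPM in WT HFD, 7.97, 34.5 and 23.7 CPM in KO chow and 3.49, 3.27 and 3.45 CPM in WT chow. All 9 libraries outside KO chow lay below its lowest library. In KO mice Cyp3a11 fell on HFD, to 3.89 ± 0.156 CPM against 22.1 ± 13.4 CPM on chow (SD, n = 3 each), a log2 difference of -2.50 (SE 0.45, adjusted p = 0.012, edgeR). The call was lost in a fit of only the groups compared (adjusted p = 0.098) and without KO HFD 2 (adjusted p = 0.054). Without KO chow 3 it was -2.46 (adjusted p = 0.043), and without both KO chow 3 and WT chow 1 it was -2.47 (adjusted p = 0.080). The smooth muscle markers, all with counts, summed to 250.4 to 279 CPM in KO HFD against 174 to 184 CPM in KO chow. Most of the sum was Mylk, which was 1.3-fold higher in KO HFD (adjusted p = 0.019, edgeR). The others were 1.19-fold (Tagln) to 2.59-fold (Synm) higher. Of those, Myh11 and Synm were called (adjusted p = 0.020 and 0.0035, edgeR). The part of smooth muscle in the result was not tested.

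On chow, the same KO libraries gave Cyp3a11 a log2 difference of 2.69 over WT (SE 0.45), and its adjusted p of 0.076 in edgeR missed the threshold of 0.05. It passed with the DESeq2 Wald test (adjusted p = 4.36e-06), with a filter of 50 counts (adjusted p = 0.0497) and without KO chow 1 (adjusted p = 4.76e-06). The genotype difference on HFD was 0.55 (SE 0.48, adjusted p = 0.67), and that of HFD over chow in WT was -0.36 (SE 0.47, adjusted p = 0.67). Lct, the brush-border lactase and 1 of the 6 proximal intestine markers, was at 0.453, 102 and 57.6 CPM in the KO chow libraries. Cyp3a11 had the same order. KO chow 3 lay between KO chow 1 and 2 for 98.3% of genes that differed over 2-fold between those. For genes that differ there, only this order or its reverse is thus likely. Gata4 (2.72, 7.56 and 5.37 CPM) and Rbp2 (93.4, 103 and 102 CPM) had this order too. Fabp1 (3.70, 3.71 and 3.83 CPM), Cybrd1 (1.12, 1.55 and 1.06 CPM) and Onecut2 (0.693, 0.290 and 0.483 CPM) did not. In the HFD libraries Lct lay at 50.2 to 256 CPM while Cyp3a11 lay at 2.18 to 4.07 CPM.

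Cyp3a25 (chr5:145977194-146009618, minus strand), another CYP3A enzyme from the same cluster, was lowest in WT chow. It stood at 63.7, 46.4 and 64.6 CPM in KO HFD, 47.7, 61.4 and 52.8 CPM in WT HFD, 34.7, 59.7 and 48.2 CPM in KO chow and 21.8, 22.2 and 22.5 CPM in WT chow. All 9 libraries of the other groups lay above all 3 of WT chow. In WT mice it rose on HFD, by a log2 difference of 1.28 (SE 0.18, adjusted p = 0.0020, edgeR), and the call held in all 19 alternative settings. In KO mice HFD over chow gave 0.29 (SE 0.18, adjusted p = 0.34). On chow the genotype difference of 1.1 (SE 0.18, adjusted p = 0.052) missed the threshold, and it passed in 5 of 19 alternatives, those without KO chow 1 and without KO HFD 2 among them. Lct was at 76.2 to 256 CPM in WT HFD and 2.01 to 2.75 CPM in WT chow. It was lowest in KO chow 1, where Cyp3a25 was at 34.7 CPM. Of the proximal markers, Lct, Fabp1 and Rbp2 were called higher on HFD in WT (adjusted p = 0.028, 0.0018 and 0.00025, edgeR). Gata4, Cybrd1 and Onecut2 were not called. The part of proximal tissue in the result was not tested.

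Cyp3a13 (chr5:137892932-137921619, minus strand), the most abundant of the 4 P450 genes here, varied little. It stood at 257, 261 and 282 CPM in KO HFD, 238, 306 and 272 CPM in WT HFD, 342, 308 and 322 CPM in KO chow and 296, 326 and 278 CPM in WT chow. In KO mice all 3 HFD libraries lay below all 3 chow libraries, a log2 difference of -0.28 (SE 0.10, adjusted p = 0.083, edgeR), which did not pass. It did pass with the DESeq2 Wald test (adjusted p = 0.0394) and without WT HFD 1 (adjusted p = 0.041). The genotype differences were -0.03 on HFD (adjusted p = 0.93) and 0.11 on chow (adjusted p = 0.64).

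Cyp2b10 (chr7:25897620-25926624, plus strand), the classic CAR target, was both scarce and uneven within groups. It stood at 0.806, 3.69 and 2.90 CPM in KO HFD, 4.97, 6.13 and 0.600 CPM in WT HFD, 0.240, 8.06 and 4.29 CPM in KO chow and 0.456, 0.579 and 0.530 CPM in WT chow, from 9 to 306 counts. Its close copies Cyp2b9, Cyp2b13 and Cyp2b19 had 0 expected counts in all 12 libraries. Each group other than WT chow held high and low libraries. The log2 fold changes were -0.67 (SE 1.05, adjusted p = 0.83, edgeR) for KO against WT on HFD and 3.01 (SE 1.22, adjusted p = 0.35) on chow. HFD over chow gave -0.77 (SE 1.06, adjusted p = 0.71) in KO and 2.91 (SE 1.21, adjusted p = 0.15) in WT, the last passing only with the DESeq2 Wald test (adjusted p = 0.044). The 6 libraries highest in Cyp2b10, at 2.90 to 8.06 CPM, were the 6 highest in Gata4, at 4.86 to 12.9 CPM. The other 6 held 0.240 to 0.806 CPM of Cyp2b10 and 1.72 to 2.88 CPM of Gata4. Gata4 encodes a transcription factor of the proximal small intestine, and the pair was singled out after the values were seen. For the other 7 genes 3 to 5 of the 6 libraries were shared. Of the proximal markers, only Gata4 had these 6 libraries highest. For Lct, WT HFD 3 (76.2 CPM) lay above KO chow 3 (57.6 CPM). Fabp1 and Rbp2 were higher in every HFD library than in every chow library. Cybrd1 was higher in WT chow 2 (1.85 CPM) than in KO chow 2 (1.55 CPM). Onecut2 was highest in KO chow 1 (0.693 CPM), where Cyp2b10 was lowest. The part of proximal tissue in Cyp2b10 was not tested.

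**Figure D2:**
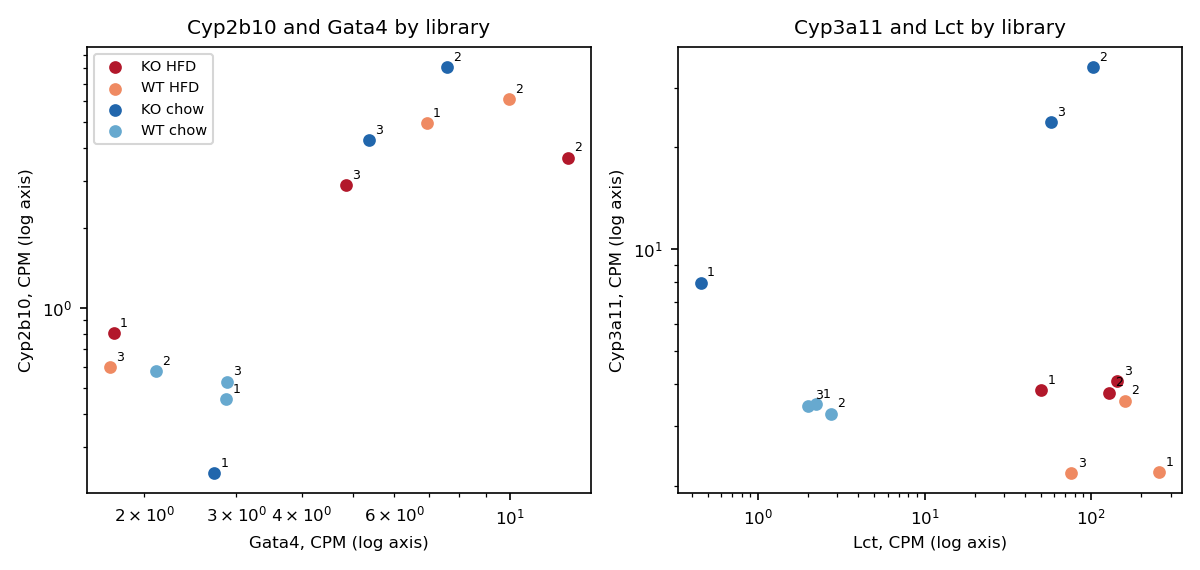
CPM of Cyp2b10 against Gata4 (left) and of Cyp3a11 against Lct (right), with log axes, 1 point per library, groups by colour and replicate numbers beside the points. The 6 libraries highest in Gata4 are the 6 highest in Cyp2b10, which held for no other proximal marker. Cyp3a11 was above 4.07 CPM in the 3 KO chow libraries over a range of Lct from 0.453 to 102 CPM.

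The conjugating enzyme gave the one called genotype difference. Ugt1a1 (chr1:88211959-88218997, plus strand), which conjugates bilirubin, stood at 63.2, 71.8 and 85.0 CPM in KO HFD, 141, 121 and 99.9 CPM in WT HFD, 59.1, 79.5 and 69.4 CPM in KO chow and 71.5, 69.0 and 72.4 CPM in WT chow. All 3 WT HFD libraries lay above all 9 others, which overlapped one another. On HFD Ugt1a1 was lower in KO than in WT, by a log2 difference of -0.72 (SE 0.14, adjusted p = 0.048, edgeR), and the call stood in 8 of 20 alternative settings, with adjusted p from 0.00013 to 0.213. The libraries whose removal ended it were KO HFD 1 and 2, WT HFD 1 and 2, KO chow 3 and WT chow 1, 2 and 3. In WT mice Ugt1a1 rose on HFD, by 0.76 (SE 0.14, adjusted p = 0.0042), while in KO mice HFD over chow gave 0.08 (SE 0.14, adjusted p = 0.77). On chow the genotype difference was -0.03 (SE 0.14, adjusted p = 0.94). The enterocyte markers summed to 21813 to 28411 CPM in KO HFD against 25447 to 28930.2 CPM in WT HFD. In the same groups the smooth muscle markers summed to 250.4 to 279 CPM against 185 to 221 CPM. Most of the latter sum was Mylk, at 172 ± 24.6 CPM against 161 ± 4.51 CPM (SD, n = 3 each). The other smooth muscle markers were 1.55-fold (Tagln) to 2.71-fold (Actg2) higher in KO HFD, and Synm was called (adjusted p = 0.038, edgeR). The part of the enterocyte, smooth muscle and proximal markers was not tested.

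Ugt1a1 shares its last exons with 8 other Ugt1a genes, each of which adds its own first exon, so the division of reads among them is uncertain. The 9 genes together stood at 137, 148 and 161 CPM in KO HFD, 276, 238 and 198 CPM in WT HFD, 186, 189 and 182 CPM in KO chow and 199, 194 and 209 CPM in WT chow. KO HFD lay below every other group. The sum was lower in KO than in WT on HFD by a log2 difference of -0.67 (SE 0.10, adjusted p = 0.025, edgeR). HFD over chow gave the sum -0.32 (SE 0.10, adjusted p = 0.068) in KO and 0.24 (SE 0.10, adjusted p = 0.13) in WT, and neither passed. Ugt1a1 made up 49.0 ± 3.37% of the sum in KO HFD and 50.8 ± 0.264% in WT HFD, against 37.2 ± 5.15% in KO chow and 35.4 ± 0.703% in WT chow (SD, n = 3 each). Most of the remainder was Ugt1a7c, a gut member of the family.

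**Figure D3:**
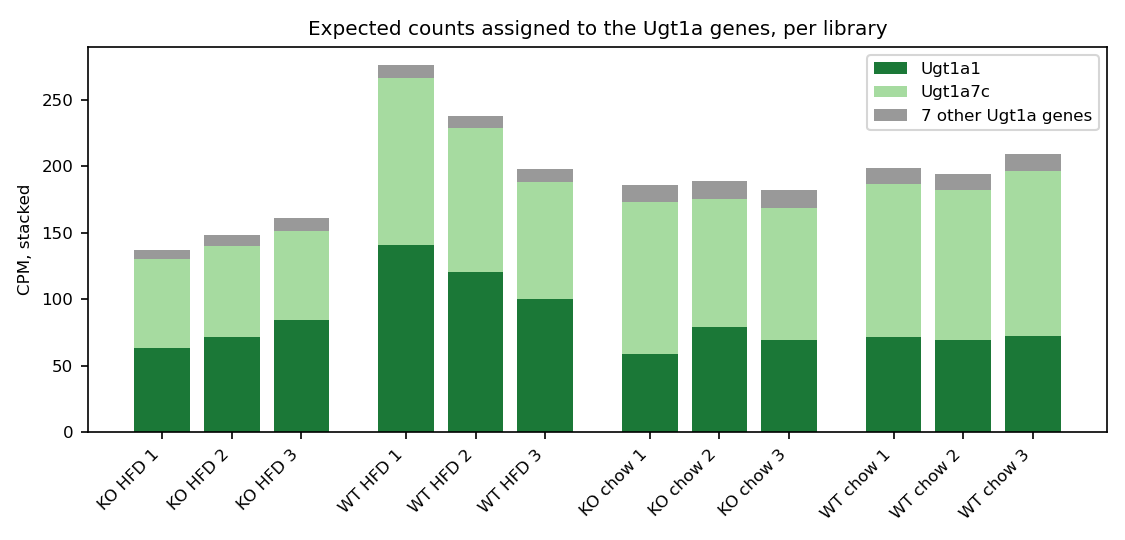
CPM assigned to Ugt1a1, to Ugt1a7c and to the other Ugt1a genes in each library, with the 4 groups side by side. The sum is lowest in KO HFD, at 137 to 161 CPM, and highest in WT HFD, with 2 of its 3 libraries above 209 CPM, and the Ugt1a1 part is larger on HFD than on chow.

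The CYP3A genes of the chromosome 5 cluster are also close in sequence. The sum over 8 of them, Cyp3a13 apart, was 91.2 to 94.9% Cyp3a25 on HFD and 62.2 to 83.8% on chow, so it mostly reads that gene. Its log2 fold change was 1.11 (SE 0.24, adjusted p = 0.017, edgeR) for HFD against chow in WT and -0.18 (SE 0.24, adjusted p = 0.70) in KO. For KO against WT it was 0.15 (SE 0.24, adjusted p = 0.84) on HFD and 1.43 (SE 0.24, adjusted p = 0.075) on chow. Of the sum, Cyp3a11 held 28.6 ± 9.52% in KO chow against 12.8 ± 0.507% in WT chow (SD, n = 3 each).

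The exporter was the most abundant of the 8 genes per length. Abcb1a (chr5:8660077-8748575, plus strand), which encodes the drug efflux pump P-glycoprotein, stood at 1332, 744 and 1704 CPM in KO HFD, 1139, 1331 and 1643 CPM in WT HFD, 997, 1642 and 1348 CPM in KO chow and 952, 943 and 979.7 CPM in WT chow. KO HFD held both the lowest and the highest library of the series, and WT chow was tightly grouped. Both KO chow and WT HFD lay wholly above WT chow. None of the 4 comparisons passed in edgeR with all groups fitted: the log2 fold change was -0.12 (SE 0.27, adjusted p = 0.89, edgeR) for KO against WT on HFD and 0.47 (SE 0.27, adjusted p = 0.49) on chow. HFD over chow gave -0.08 (SE 0.27, adjusted p = 0.90) in KO and 0.52 (SE 0.27, adjusted p = 0.24) in WT, the last passing in a fit of only the groups compared (adjusted p = 0.014). An unnamed gene model, Gm42686, lies on the opposite strand within it.

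Per kilobase of exon, and as means ± SD over the 12 libraries, the levels ran from Abcb1a at 224 ± 58.2 CPM through Cyp3a13 at 98.3 ± 10.6 CPM and Ugt1a1 at 37.6 ± 11.2 CPM to Nr1i2 at 33.8 ± 2.1 CPM. Cyp3a25 followed at 21.8 ± 7.88 CPM, then Cyp3a11 at 1.57 ± 2.01 CPM, Cyp2b10 at 1.31 ± 1.26 CPM and Nr1i3 at 0.894 ± 0.247 CPM. Ugt1a1 and Nr1i2 lay within their spread of each other, as did the last 3. The order was not the same in every group. Cyp3a11 was the lowest of the 8 per kilobase in KO HFD (0.764 ± 0.0306 CPM) and WT HFD (0.52 ± 0.157 CPM), against 4.33 ± 2.62 CPM in KO chow and 0.668 ± 0.0224 CPM in WT chow (SD, n = 3 each). Mean Ugt1a1 exceeded mean Nr1i2 in WT HFD, at 54.2 against 34.1 CPM per kilobase, and was below it in the other groups.

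Read by comparison, few of the 8 passed. Because the 8 were chosen with earlier results of these data known, the shares of all genes beside them serve as description only. For KO against WT on chow edgeR called 0 of 8, beside 0.125% of all tested genes, while DESeq2 called 2, Cyp3a11 and Cyp3a25. DESeq2 also called more of all genes than edgeR did, as counted further below, so 0.125% is not the share for its calls. An unadjusted p under 0.05 was reached by 4 of 8 members and 13% of all genes, and KO chow lay wholly above WT chow for 5 members and 10.0% of all genes. The median log2 fold change of the 8 was 0.54, against 0.003 over all genes. For KO against WT on HFD 1 of 8 was lower, Ugt1a1, beside 0.187% of all genes called lower, with a median of -0.03 against -0.001.

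In WT mice on HFD against chow 2 of 8 were higher, Cyp3a25 and Ugt1a1, beside 6.8% of all genes, with a median of 0.43 against 0.006. In KO 1 of 8 was lower, Cyp3a11, beside 4.76% of all genes, with a median of -0.18 against 0.01. The 4 comparisons share groups in pairs, so they are not independent of one another. Whether the diet difference depended on genotype was tested as an interaction. edgeR called 0 of 8 and 0.00568% of all genes. An unadjusted p under 0.05 in edgeR was reached by 3 of 8 and 6.34% of all genes. DESeq2 called 1 of 8, Cyp3a25 (adjusted p = 0.028), and more of all genes than edgeR, as counted further below. The interaction estimates were -0.99 for Cyp3a25 (SE 0.26, adjusted p = 0.51), -0.68 for Ugt1a1 (SE 0.19, adjusted p = 0.57) and -2.14 for Cyp3a11 (SE 0.65, adjusted p = 0.68) in edgeR, and that of Cyp3a11 passed without KO chow 1 (adjusted p = 0.0029). A difference between genotypes in the diet response was thus not detected for any of the 8 with all 12 libraries in edgeR, even where only one genotype passed.

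**Figure D4:**
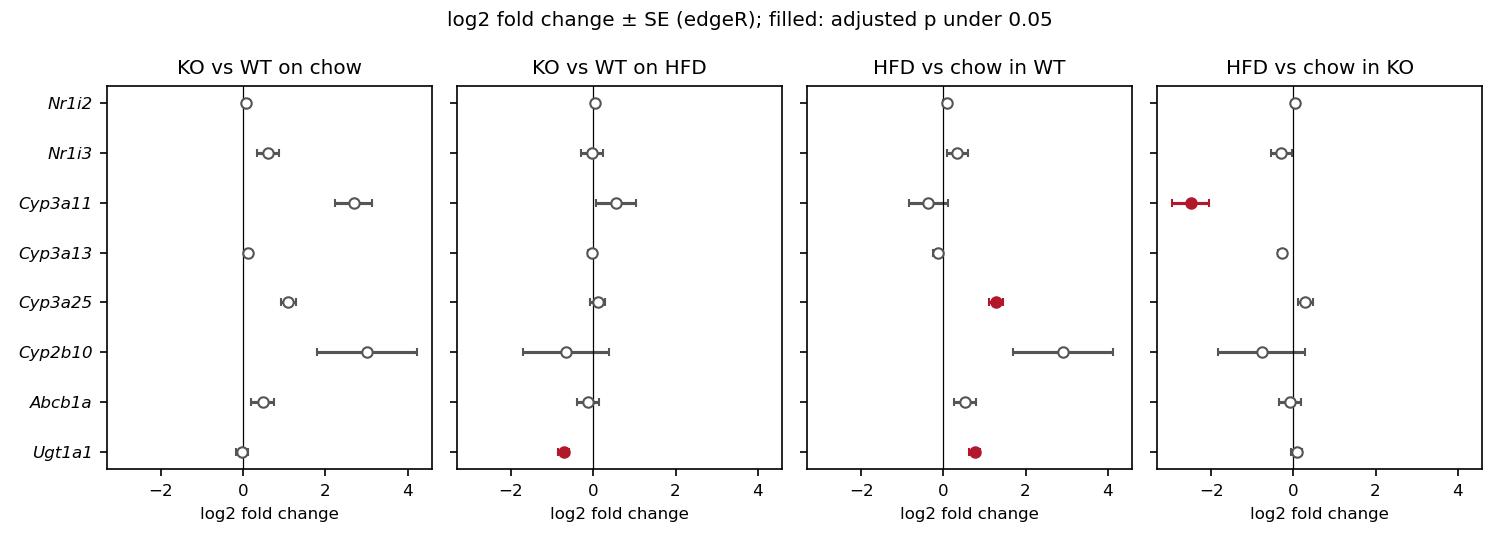
Log2 fold change of each of the 8 genes in the 4 pairwise comparisons, with bars of 1 SE and filled points for adjusted p under 0.05. Filled points are Ugt1a1 for KO against WT on HFD, Cyp3a25 and Ugt1a1 for HFD against chow in WT, and Cyp3a11 for HFD against chow in KO.

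Another 64 genes of xenobiotic handling were listed by role, of which 52 passed the filter: 10 of 17 of oxidation, 21 of 24 of conjugation, 6 of 7 of transport and 15 of 16 of receptors, partners and regulators. These lists too were made with earlier results known, so shares of all genes again serve as description only. For KO against WT on chow 1 of 52 was called, beside 0.125% of all genes. It was Ces2a, a carboxylesterase that hydrolyses drugs and lipids, which rose to 221 ± 30.9 CPM in KO chow against 118 ± 4.02 CPM in WT chow (SD, n = 3 each). Its log2 fold change was 0.91 (SE 0.12, adjusted p = 0.0085, edgeR), and the call was lost without WT chow 1, WT chow 2 or KO chow 3. Gsta4, a glutathione transferase and next by p, was at 0.67 (adjusted p = 0.19, edgeR) and passed in 2 of 19 alternatives, the DESeq2 Wald test and without KO chow 1.

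For KO against WT on HFD 1 of 52 fell, Ugt1a7c, which shares reads with Ugt1a1, beside 0.187% of all genes. It stood at 67.2, 68.8 and 67.2 CPM in KO HFD against 126, 108 and 87.8 CPM in WT HFD, a log2 difference of -0.66 (SE 0.11, adjusted p = 0.031, edgeR). It passed in 9 of 19 alternatives, and the call was lost without WT chow 1, 2 or 3, KO chow 3, WT HFD 1 or 2, or KO HFD 1 or 2. Por, the reductase that supplies electrons to P450 enzymes, was at 98.9 ± 18 CPM in KO HFD and 143 ± 19.2 CPM in WT HFD, a difference of -0.54 (SE 0.12, adjusted p = 0.087) that did not pass. It passed in 4 of 19 alternatives: the DESeq2 Wald test, no filter, without WT HFD 3 and without KO HFD 3.

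For HFD against chow in WT 13 of 52 rose and 6 fell, beside 6.8% and 6.57% of all genes. Of the oxidation genes 5 of 10 rose, among them Aldh1a7 (0.99, adjusted p = 0.0020) and Aldh1a1 (0.85, adjusted p = 0.0080), which are aldehyde dehydrogenases. Of the conjugation genes 4 of 21 rose, among them the sulfotransferase Sult1a1 (1.07, adjusted p = 0.020) and the glutathione transferases Gstt1 (0.95, adjusted p = 0.0045) and Gsta4 (0.77, adjusted p = 0.014). Another 4 of the 21 fell: Ugt1a5 (-1.39, adjusted p = 0.015), Gstm2 (-0.93, adjusted p = 0.0072), Gsta3 (-0.87, adjusted p = 0.018) and Ugt1a6a (-0.56, adjusted p = 0.012). The exporters Abcc3 (-0.88, adjusted p = 0.0049) and Abcg2 (-0.52, adjusted p = 0.014) fell too. Nr0b2, which encodes the repressor SHP, rose by 3.59 (adjusted p = 0.036), at 0.961 ± 0.492 CPM in WT HFD against 0.0796 ± 0.0386 CPM in WT chow (SD, n = 3 each), and the call was lost without any one WT library or KO chow 3. The calls of Aldh1a7, Aldh1a1, Gstt1, Gstm2 and Abcc3 held without any one library. Single removals ended those of Gsta4 (WT chow 1 or 3), Sult1a1 (WT chow 1 or 3 or WT HFD 2), Abcg2 (WT chow 2), Gsta3 (WT chow 2 or 3 or WT HFD 2 or 3), Ugt1a5 (WT chow 3 or WT HFD 3) and Ugt1a6a (WT chow 1 or 3). The values beside adjusted p are log2 fold changes from edgeR.

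In KO mice on HFD against chow 5 of 52 rose and 8 fell, beside 3.44% and 4.76% of all genes. Of the conjugation genes 6 of 21 fell, among them Gsta3 (-1.67, adjusted p = 0.0012), Gstm2 (-1.23, adjusted p = 0.0027), Ugt1a6a (-1.19, adjusted p = 0.00038), Gstm1 (-1.1, adjusted p = 0.0087) and Gsta1 (-0.92, adjusted p = 0.018). The exporter Abcc3 fell as well (-1.23, adjusted p = 0.0015, edgeR). The genes that rose were Aldh1a7 (0.93, adjusted p = 0.0045) and 4 regulators. Those were Hsp90aa1 (0.90, adjusted p = 0.0026) and Hsp90ab1 (0.47, adjusted p = 0.020), chaperones that hold nuclear receptors, the corepressor Ncor1 (0.41, adjusted p = 0.016) and the transcription factor Foxo1 (0.41, adjusted p = 0.010). Single removals ended the calls of Foxo1 (KO chow 3), Gsta1 (KO chow 1 or 3 or KO HFD 1 or 2), Hsp90ab1 (KO chow 1 or 3 or KO HFD 1 or 3) and Ncor1 (KO chow 1 or 3 or KO HFD 3). The list genes called lower on HFD in both genotypes were Abcc3, Abcg2, Gsta3, Gstm2 and Ugt1a6a, with Abcg2 at -0.58 in KO (adjusted p = 0.011, edgeR). The genotypes do not share samples but share the fit and its estimate of spread. The share of all genes called in both is not given here. Those called higher in both were Aldh1a7, Foxo1, Hsp90aa1 and Ncor1. In WT, Foxo1 was at 0.35 (adjusted p = 0.016), Hsp90aa1 at 0.59 (adjusted p = 0.013) and Ncor1 at 0.46 (adjusted p = 0.0057) in edgeR. For the interaction edgeR called 0 of 52, beside 0.00568% of all genes. DESeq2 called 3 of 52, and more of all genes than edgeR, as counted further below. An unadjusted p under 0.05 was reached by 16 of 52 and 6.34% of all genes. The 2 smallest p in edgeR were those of Gstt1 (-1.05, adjusted p = 0.39) and Ces2a (-0.71, adjusted p = 0.39).

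**Figure D5:**
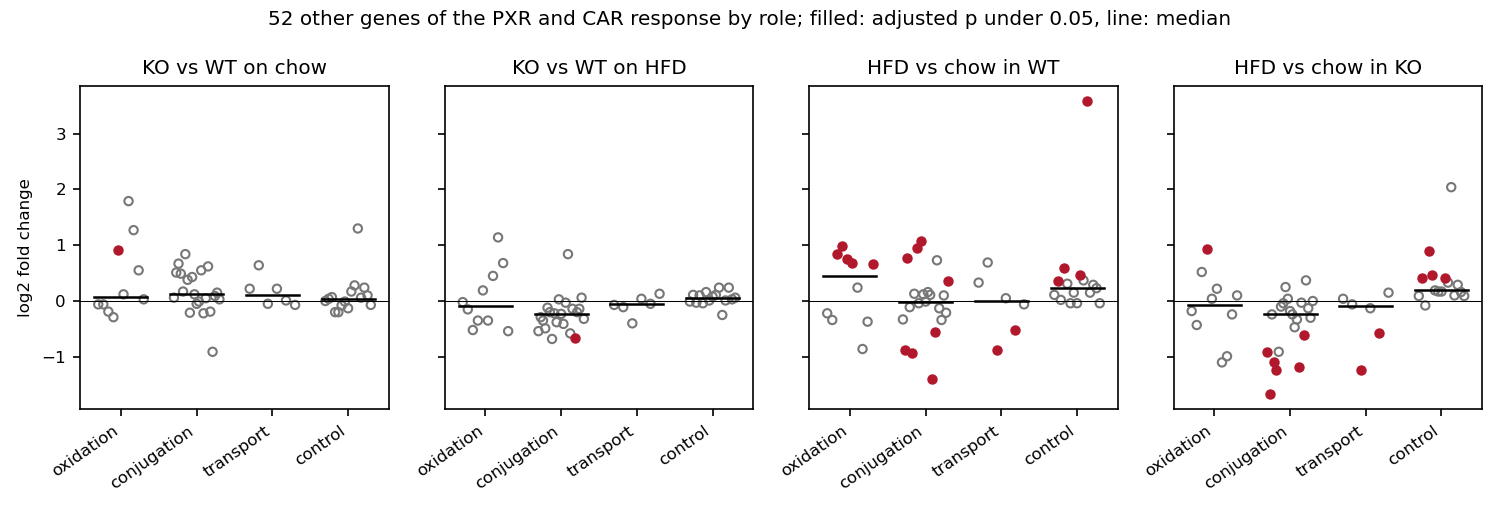
Log2 fold change of each of the 52 tested genes by role (receptors, partners and regulators under control), 1 panel per comparison, with filled points for adjusted p under 0.05 and a line at the median of each role. The genotype panels hold 1 filled point each, Ces2a on chow and Ugt1a7c on HFD, while the diet panels hold 13 above and 6 below 0 in WT and 5 above and 8 below 0 in KO.

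For 4 of the genes, those most like them over the 12 libraries were found by Pearson's correlation of log2(CPM + 0.5) among 11552 genes; the libraries share their groups, so this is a description. Nr1i2 was most like Myh14 (0.922), Tsc22d4 (0.898) and Zbtb7b (0.897). Cyp3a11 was most like Appl2 (0.941), Slc6a7 (0.923) and Gadd45a (0.912), and Appl2 was at 37.1, 48.4 and 41.8 CPM in KO chow against 31.1 to 37.4 CPM elsewhere. Abcb1a was most like Il15 (0.915), Ank3 (0.903) and Hsd3b2 (0.89). Ugt1a1 was most like Cyb5r3 (0.968), Aldh3a2 (0.961) and Slc27a2 (0.959), and Aldh3a2, a fatty aldehyde dehydrogenase, was at 122 to 161 CPM in KO HFD, 175 to 215 CPM in WT HFD, 113 to 124 CPM in KO chow and 123 to 133 CPM in WT chow.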

How the data were processed

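Per the labels' protocols, total RNA of mouse intestine was extracted on columns and sequenced from stranded total RNA libraries. The deposited table gives expected counts per gene, which the authors did not scale between libraries, as the differing totals of 33621040 to 53959405 show. Trimmomatic, STAR, Picard, RSEM and the build mm10 are named, per the submitters' processing notes, without versions. Neither the annotation release nor the strand setting is given in the sources used here. Between 12.3% and 13.2% of genes per library held fractional values, since RSEM divides reads among similar genes. Gene IDs were matched to symbols through GENCODE vM21 on GRCm38 (47224 of 47643), and 18495 genes had no count. Promoters came from RefSeq, and all 8 genes matched.

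Counts were rounded and tested in edgeR 4.0.16 (R 4.3.3) with TMM factors, filterByExpr defaults and the robust quasi-likelihood F test. All 12 libraries entered 1 fit of 4 group means. Benjamini-Hochberg adjustment ran over all 17602 genes with a threshold of 0.05, and the standard error came from the F statistic. CPM used TMM-scaled library sizes. Groups were called not overlapping when every library of 1 lay beyond every library of the other. The procedure was tested on simulated data.

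The members, the lists, the alternatives and the rule for named genes were chosen with earlier results of these data known. The rule named all 8 members, up to 6 called pathway genes per direction and comparison with the largest change, the 2 smallest p where fewer than 2 were called, and 3 most alike genes for each of 4 members. Alternatives were DESeq2 1.42.0 size factors or Wald test, no filter, a minimum of 50 counts in 3 libraries, a fit of the compared groups alone, replicate numbers as a block, leaving out each library, WT chow 1 and KO chow 3 left out together, and near copies summed. Tables and figures were made in Python 3.11.15 with pandas 2.3.3 and matplotlib 3.10.9.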

Additional observations from a re-analysis of the deposited data

How the results depend on the processing

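Of the 4 called differences of the 8 genes, the rise of Cyp3a25 on HFD in WT kept its call under all 19 alternatives. So did these of the named pathway genes for HFD against chow: Abcc3 and Gstm2 in both genotypes, Aldh1a7 and Gstt1 in WT, and Gsta3, Hsp90aa1 and Ugt1a6a in KO. Changes of sign were limited to differences that were not called, except that the summed CYP3A genes, mostly Cyp3a25, gave 1.11 for HFD against chow in WT in place of -0.36 for Cyp3a11. The summed Ugt1a genes gave -0.32 in place of 0.08 for Ugt1a1 on HFD against chow in KO. Unless the construction of the setting shows it, the cause was not tested.

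Of the 8 genes, those called for KO against WT on chow numbered 0, and 1 with DESeq2 size factors, 2 with the DESeq2 Wald test and 2 with 50 counts in 3 libraries. For KO against WT on HFD they numbered 1, and 0 with 50 counts, with only the groups compared, with the replicate block and with WT chow 1 and KO chow 3 left out together. For HFD against chow in KO they numbered 1, and 2 with the Wald test, 0 with only the groups compared and 0 with both chow libraries left out. For the interaction they numbered 0, and 1 with the Wald test. Counts over all genes follow for some of these settings only. They are not given for KO against WT on chow with DESeq2 size factors or 50 counts. Nor are they given for HFD against chow in KO with the Wald test. Those calls of the 8 thus have no share of all genes beside them. Leaving out each library gave 0 to 2, 0 to 1, 2 to 2, 0 to 2 and 0 to 1 for KO against WT on chow, KO against WT on HFD, HFD against chow in WT, HFD against chow in KO and the interaction, in that order.

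Of all genes, 22 were called for KO against WT on chow, and 186 with the Wald test, 49 with no filter, 54 with only the groups compared, 14 with the replicate block and 1 with both chow libraries left out. On HFD 51 were called, and 288, 94, 6 and 3 with the Wald test, no filter, only the groups compared and both chow libraries left out. For HFD against chow 2353 were called in WT, and 458 with both chow libraries left out. In KO 1444 were called, and 335 with only the groups compared and 185 with both chow libraries left out. For the interaction 1 was called, and 57 with the Wald test, 4 with no filter, and 0 with 50 counts, the replicate block or both chow libraries left out. Leaving out each library gave 1 to 517 genes for KO against WT on chow, 5 to 173 on HFD, 895 to 3089 for HFD against chow in WT, 451 to 2551 in KO and 0 to 19 for the interaction.

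With each library left out, KO against WT ranged from -0.15 to 0.07 for Ugt1a1 on chow, and on HFD from -0.05 to 0.11 for Nr1i2, -0.33 to 0.16 for Nr1i3, -0.12 to 0.07 for Cyp3a13 and -0.41 to 0.15 for Abcb1a. HFD against chow ranged from -0.0033 to 0.15 for Nr1i2 in WT, and in KO from -0.01 to 0.07 for Nr1i2, -1.35 to 0.14 for Cyp2b10, -0.38 to 0.19 for Abcb1a and -0.06 to 0.18 for Ugt1a1. The interaction of Nr1i2 ranged from -0.11 to 0.04. Same-numbered libraries of different groups had correlations of their deviations from -0.168 to 0.229. Libraries with different numbers were not compared, so this range cannot decide whether replicate numbers pair the samples. The replicate block left Ugt1a1 for KO against WT on HFD at -0.72 (adjusted p = 0.099, edgeR). With 9 to 306 counts per library, Cyp2b10 had the widest errors of the 8, and Nr1i3 rested on 94 to 229 counts.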

Other observations

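Cyp2c55, a PXR and CAR target of mouse gut and liver on the list of other pathway genes, was singled out after its values were seen. It averaged 32.8 ± 17.1 CPM in KO chow against 9.43 ± 1.1 CPM in WT chow (SD, n = 3 each), with the groups apart and a log2 difference of 1.79 (SE 0.55, adjusted p = 0.26, edgeR) that did not pass. It averaged 15.3 ± 8.43 CPM in KO HFD and 11.1 ± 3.8 CPM in WT HFD (SD, n = 3 each), a difference of 0.45 (SE 0.54, adjusted p = 0.77, edgeR).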
